A study of Mus musculus with 6 samples.

Results

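The genes described here are the WNT ligand family, the Frizzled receptor family and 13 genes around them that transmit or restrain the WNT signal. The rule uses symbols and no measured value: every symbol of the form Wnt or Fzd with a number, plus the co-receptors Lrp5 and Lrp6, the R-spondin receptor Lgr4, beta-catenin (Ctnnb1), the DNA-binding partners Tcf7, Tcf7l2 and Lef1, the feedback genes Axin2, Nkd1, Rnf43 and Znrf3, and the secreted antagonists Dkk1 and Sfrp1. That gave 42 genes of the 41388 listed, among them 19 ligands and 10 Frizzled receptors. They were measured by RNA-seq in KP2 cells, an early-passage mouse pancreatic cancer line of C57BL/6J strain derived from the KPC model. Libraries came from 3 groups of 2: IRAK4 KO cells carrying a rescue (rescue), IRAK4 KO cells (KO), and wild-type cells. The KO had been made with plentiCRISPR vectors carrying guides against IRAK4, the kinase that relays Toll-like and interleukin-1 receptor signals. The labels state neither the rescue construct, nor a control vector in wild-type cells, nor whether the KO line is a clone or a pool. They also do not say that replicates were separate cultures, so the spread between them, and every p-value, may be technical.

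WNT proteins are secreted, lipid-modified ligands that bind a Frizzled receptor together with the co-receptor LRP5 or LRP6. In the canonical branch this stops the destruction complex from degrading beta-catenin, which then enters the nucleus and switches on targets through TCF and LEF factors. Some of those targets restrain the pathway: AXIN2 rebuilds the destruction complex, and RNF43 and ZNRF3 remove Frizzled receptors from the cell surface unless R-spondins, acting through LGR receptors, hold them back. Ligands such as WNT5A act mainly through branches that do not use beta-catenin. In pancreatic ductal cancer, WNT7B is known as a ligand that tumour cells make for themselves, and loss of RNF43 is known to make cells dependent on WNT.

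The promoters of Axin2 and Fzd4 are printed because these were the feedback gene and the receptor with the lowest fitted fold changes in the KO. Each is the 250 bases before the gene's start, from RefSeq on build GRCm38.p6, 5′ to 3′ on the gene's own strand, with CpG dinucleotides in capitals. The Axin2 stretch is chr11:108920099-108920348 on the plus strand and the Fzd4 stretch is chr7:89404116-89404365 on the plus strand.
Axin2: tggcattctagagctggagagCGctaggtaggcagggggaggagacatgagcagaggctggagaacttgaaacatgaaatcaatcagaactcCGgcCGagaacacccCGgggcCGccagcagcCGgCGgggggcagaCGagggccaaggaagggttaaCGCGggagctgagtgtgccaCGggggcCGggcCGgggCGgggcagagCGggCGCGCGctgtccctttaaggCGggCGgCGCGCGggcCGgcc
Fzd4: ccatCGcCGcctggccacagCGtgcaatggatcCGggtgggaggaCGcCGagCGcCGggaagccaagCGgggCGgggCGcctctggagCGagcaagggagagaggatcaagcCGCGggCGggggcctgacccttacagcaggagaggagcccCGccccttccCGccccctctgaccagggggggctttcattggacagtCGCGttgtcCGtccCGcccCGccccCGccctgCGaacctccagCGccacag
Both were rich in CpG, with 24 in Axin2 and 25 in Fzd4, against a median of 6 over 32851 promoter windows in the table. Windows from 250 bases before to 50 after the start were found for 30 of the 42 genes. The TCF/LEF motif CTTTGAT, searched on both strands, was in 0 of the 17 windows of 13 expressed members and in 3.73% of all windows. These letters were therefore not in these windows, which says nothing about binding elsewhere.

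Irak4, the targeted gene, had 492 and 211 normalised CPM (reads scaled to a common library size after TMM scaling) in the rescue libraries, 20.4 and 21.8 in the KO libraries and 37.9 and 37.6 in the wild-type libraries. Both rescue libraries stood above both wild-type libraries and differed from each other. The log2 fold change of the rescue was 4.06 against the KO (SE 0.32, adjusted p = 2.3e-04) and 3.22 against wild type (SE 0.30, adjusted p = 2.1e-05). The log2 fold change of the KO against wild type was -0.84 (SE 0.33) and missed the threshold (edgeR adjusted p = 0.057). Libraries held between 7605328 and 11505983 counts. As a check on the labelled cells, 7 of 9 duct and epithelial markers averaged at least 1 CPM, Epcam reached at most 0.119 normalised CPM, and Vim stood between 4104 and 5703. Summed over the 9 epithelial markers, rescue libraries had 4783 and 5643 normalised CPM, KO libraries 3911 and 4014, and wild-type libraries 7056 and 6745. The 8 leukocyte markers summed to between 4.04 and 4.82, nearly all Cd68, with 4 at 0 counts and Ptprc at most 0.254. Of 9 mesenchymal and fibroblast markers 2 averaged at least 1 CPM, Vim and Col1a1, the latter between 7.45 and 20.5 normalised CPM. Dcn, Lum and Thy1 of that list had 0 counts. The 5 endothelial markers summed to 38.2 and 14.9 in the rescue, 16.0 and 30.9 in the KO, and 4.63 and 5.47 in wild type, with 1 of 5 at 1 CPM or more, Cdh5, and Pecam1 at most 0.254. Kdr of the same list ran the other way, with 0 and 0.133 in the rescue, 0.0836 and 0.115 in the KO, and 1.54 and 1.66 in wild type. Of 5 endocrine markers 4 had 0 counts, and the other, Pdx1, also a factor of pancreatic progenitors, had 79.0 and 56.6 in the rescue, 107 and 128 in the KO, and 51.2 and 57.5 in wild type. The 5 acinar markers summed to between 1.07 and 2.29, with 3 at 0 counts. The part of these marker differences in the results was not tested.

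Of the 42 genes, 21 were expressed, taken as a mean of at least 1 CPM over the 6 libraries, and 7 had no count at all. The 21 comprised 5 ligands, 7 Frizzled receptors, both co-receptors, Lgr4, Ctnnb1, Tcf7, Tcf7l2, Axin2, Rnf43 and Znrf3. Neither secreted antagonist reached that level. The 7 genes without a count were Wnt2, Wnt3, Wnt3a, Wnt8a, Wnt9b, Nkd1 and Dkk1, where 0 counts allow up to 0.0548 normalised CPM over all libraries. Wnt1, Wnt3 and Wnt3a are the classic activators of beta-catenin signalling, and of these Wnt1 alone had a count, a single read in 1 wild-type library.

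**Figure D1:**
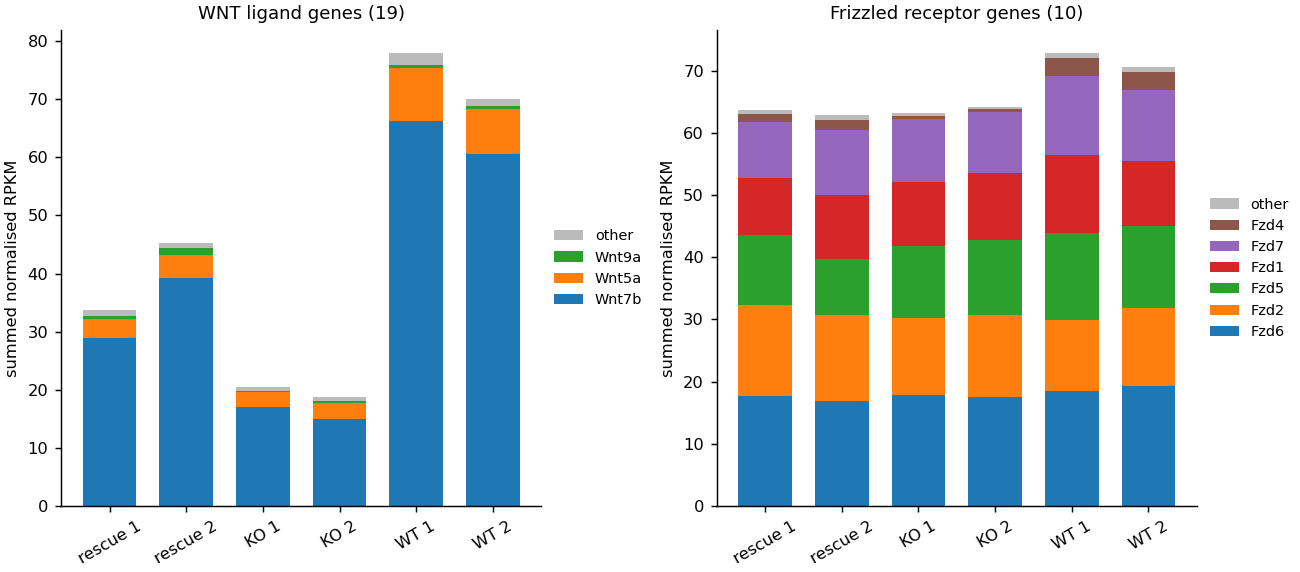
Summed level of the 19 WNT ligand genes (left) and the 10 Frizzled genes (right) in each library, in normalised RPKM (normalised CPM per kilobase of gene length), stacked by gene. Wnt7b makes up most of the ligand bar in each library and the ligand bars are lowest in the KO, while the Frizzled bars stay between 62.8 and 72.8.

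Ligand transcript was mostly Wnt7b. On a scale per kilobase of gene length (normalised RPKM), Wnt7b made up 86.1% and 86.7% of the summed ligand level in the rescue libraries, 83.1% and 79.3% in the KO libraries, and 84.9% and 86.3% in the wild-type libraries. Wnt5a came next in each library, with 8.66% to 14.9%. The summed ligand level was 33.6 and 45.2 RPKM in the rescue, 20.5 and 18.8 in the KO, and 77.9 and 70.2 in wild type, and the make-up stayed dominated by the same gene. Frizzled transcript had no such leader. Summed Frizzled level was 63.7 and 62.8 RPKM in the rescue, 63.2 and 64.1 in the KO, and 72.8 and 70.6 in wild type, a much narrower spread than that of the ligands.

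**Figure D2:**
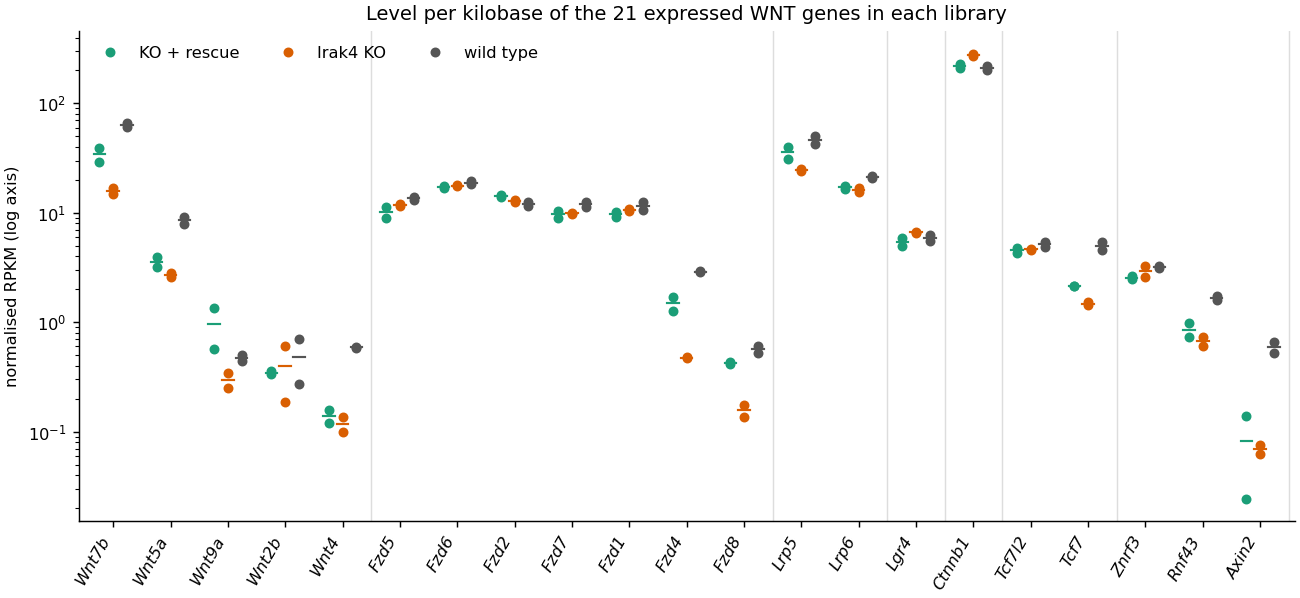
Level of the 21 expressed genes in normalised RPKM on a log axis, by role, with 1 point per library and a bar at the group mean (n = 2). Ctnnb1 lies highest in each group, and the 5 Frizzled genes above 9 RPKM vary less between groups than Wnt7b, Wnt5a, Fzd4 and Axin2 do.

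Within the Frizzled family the order of levels in wild type was Fzd6 at 18.9 ± 0.67 RPKM, Fzd5 at 13.5 ± 0.59, Fzd2 at 12.0 ± 0.74, Fzd7 at 12.0 ± 0.91 and Fzd1 at 11.6 ± 1.5 (SD, n = 2). Fzd6 stood above the others, and Fzd5 above Fzd2, by more than 1 SD of either, while Fzd2, Fzd7 and Fzd1 did not differ beyond theirs. Fzd4 and Fzd8 were far lower, at 2.90 ± 0.049 and 0.564 ± 0.055 RPKM in wild type. Fzd6 also led in the rescue at 17.2 ± 0.56 and in the KO at 17.7 ± 0.23 RPKM. Between the co-receptors, Lrp5 exceeded Lrp6 in each library, by 1.89-fold and 2.28-fold in the rescue, 1.44-fold and 1.6-fold in the KO, and 2.29-fold and 2.04-fold in wild type on the RPKM scale. Ctnnb1 had the highest level of the 42 genes, with 219 ± 13 RPKM in the rescue, 278 ± 10 in the KO and 212 ± 12 in wild type. Among the feedback genes, Znrf3 stood at 2.56 ± 0.086, 2.92 ± 0.48 and 3.21 ± 0.12 RPKM in the same order of groups, above Rnf43 at 0.855 ± 0.17, 0.673 ± 0.086 and 1.66 ± 0.11.

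The KO was set against wild type to ask which of these genes differed after targeting of Irak4. The ligands Wnt7b, Wnt5a and Wnt4, the receptors Fzd4, Fzd7 and Fzd8, both co-receptors, Tcf7, the feedback genes Axin2 and Rnf43 and the decoy Sfrp1 fell in the KO, and beta-catenin transcript rose. The 5 most abundant Frizzled transcripts differed by at most 1.21-fold. A quasi-likelihood test over all 12339 genes that passed a filter on low counts included 22 of the 42, and called 12 of them lower and 1 higher. Of all genes tested, 46.8% were called, 23.5% lower and 23.2% higher. Of the 22, Wnt4, Axin2 and Sfrp1 passed the filter through wild type alone, which bears on their direction. Without these 3, 9 of 19 were called lower and 1 higher. The median log2 fold change was -0.33 over these 19 and -0.54 over the 22, beside 0.01 over all genes tested.

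Wnt7b (chromosome 15, 85535439 to 85581821, GRCm38) had 75.1 and 65.9 normalised CPM in the KO libraries, against 292 and 267 in the wild-type libraries. Both KO libraries were far below both wild-type ones, and Wnt7b fell 3.96-fold (log2 fold change -1.98, SE 0.13, adjusted p = 1.2e-06). Genes within 5 Mb of it had a median log2 fold change of -0.21, over 87 genes tested. All 490 other genes tested on chromosome 15 had a median of -0.19. Irak4, the targeted gene, is on the same chromosome (94543643 to 94581815). Whether position plays a part was not tested. Wnt5a (chromosome 14, 28504750 to 28527447) had 20.1 and 22.0 normalised CPM in the KO and 72.0 and 61.5 in wild type. Its fall was 3.17-fold (log2 fold change -1.66 with an SE of 0.12, adjusted p = 2.7e-06), with a median of -0.05 over its 57 neighbours. Wnt4, a ligand of kidney and gonad development, was low throughout, with 0.418 and 0.573 normalised CPM in the KO against 2.49 and 2.44 in wild type, and it fell 4.98-fold (adjusted p = 0.001). Wnt9a and Wnt2b did not pass the test in this comparison, and the 2 libraries of Wnt2b differed more within wild type, at 2.49 and 0.977 normalised CPM, than its group means did. In bulk RNA, fewer cells with a transcript and less transcript per cell cannot be told apart.

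Of the Frizzled receptors, Fzd4, which also serves the ligand Norrin, fell most. Fzd4 (chromosome 7, 89404366 to 89410110) had 1.76 and 1.72 normalised CPM in the KO, against 10.8 and 10.6 in wild type, a 6.1-fold fall (log2 fold change -2.61, SE 0.24, adjusted p = 1.2e-05). Fzd8, on chromosome 18, had 0.585 and 0.458 normalised CPM in the KO against 2.02 and 1.76 in wild type. It fell 3.48-fold, on 7 and 4 counts in the KO and 17 and 18 in wild type (adjusted p = 0.006). Fzd7 had 45.5 and 44.5 normalised CPM in the KO against 57.4 and 51.5 in wild type and fell 1.21-fold (log2 fold change -0.27, SE 0.10, adjusted p = 0.047). The receptors Fzd1, Fzd2, Fzd5 and Fzd6 had log2 fold changes between -0.20 and 0.09 that did not pass. Lrp5, a co-receptor with known roles in bone and retina (chromosome 19, 3584828 to 3686564), had 234 and 243 normalised CPM in the KO against 487 and 413 in wild type. Its fall was 1.89-fold (log2 fold change -0.92, SE 0.12, adjusted p = 1.1e-04). Its partner Lrp6 had 164 and 153 normalised CPM in the KO against 214 and 204 in wild type and fell less, 1.32-fold (log2 fold change -0.40, SE 0.08, adjusted p = 0.002). Lgr4 had 39.6 and 38.2 normalised CPM in the KO and 36.5 and 32.3 in wild type, a difference that did not pass (adjusted p = 0.206).

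**Figure D3:**
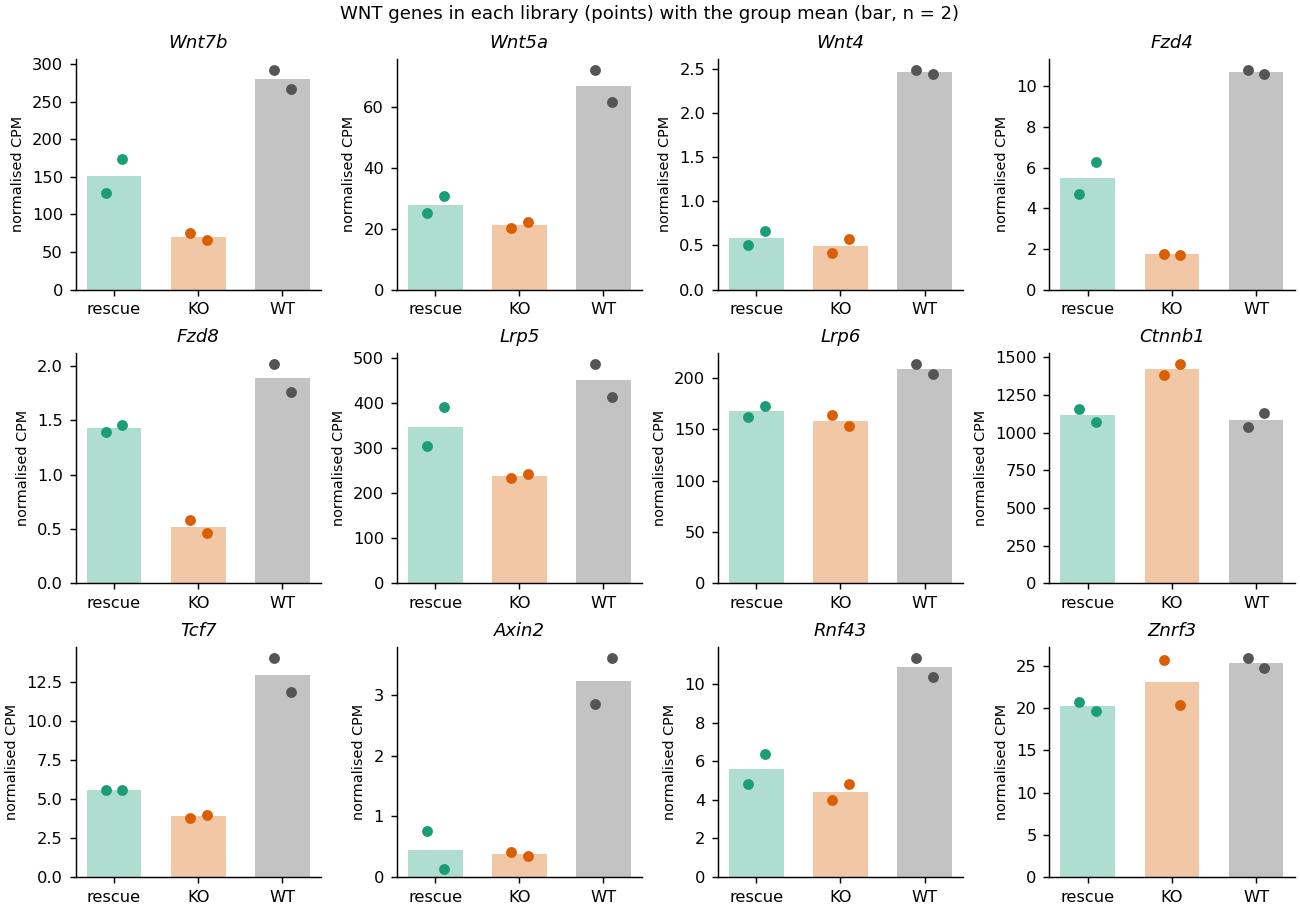
Normalised CPM of 12 of the genes in each library (points) with the group mean (bars, n = 2), each panel on its own linear axis from 0. Wild-type libraries are highest in 11 of the panels by mean, and Ctnnb1 is highest in the KO. The 12 were picked by hand, most of them genes called lower in the KO, so this share does not describe all expressed members. Of those not shown, Lgr4 had its highest mean in the KO, and Fzd2 and Wnt9a had theirs in the rescue.

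Inside the cell, beta-catenin transcript rose, the feedback genes Axin2 and Rnf43 and the factor Tcf7 fell, and the feedback gene Znrf3 and the factor Tcf7l2 did not pass. Ctnnb1 (chromosome 9, 120929216 to 120960507) had 1383 and 1456 normalised CPM in the KO against 1038 and 1128 in wild type. It rose 1.31-fold (log2 fold change 0.39, SE 0.09, adjusted p = 0.004), a change of transcript, while the protein is known to be controlled by its breakdown. Axin2, the most widely used reporter of beta-catenin signalling (chromosome 11, 108920349 to 108950783), had 0.418 and 0.344 normalised CPM in the KO against 2.85 and 3.62 in wild type. Counts were 5 and 3 in the KO and 24 and 37 in wild type, the group through which it passed the filter, and the fall was 8.18-fold (log2 fold change -3.03, SE 0.50, adjusted p = 5.3e-04). Tcf7, a TCF factor and itself a target (chromosome 11, 52252371 to 52283014), had 3.76 and 4.01 normalised CPM in the KO against 14.1 and 11.9 in wild type. It fell 3.34-fold (log2 fold change -1.74, SE 0.19, adjusted p = 4.1e-05). Rnf43 (chromosome 11, 87662722 to 87735539) fell 2.48-fold, with 4.01 and 4.81 normalised CPM in the KO and 11.4 and 10.4 in wild type (adjusted p = 4.0e-04). The groups did not overlap for any of these genes. With 2 libraries a group this carries little weight, as it also held for Fzd5, Fzd6, Lgr4, Tcf7l2 and Wnt9a, which were not called. Znrf3, the relative of Rnf43, and the TCF factor Tcf7l2 had log2 fold changes of -0.12 and -0.14 and did not pass (adjusted p = 0.471 and 0.282).

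Fzd7 was called in 5 of 15 other fits, Fzd8 in 12, and Ctnnb1 in 13, Ctnnb1 not without the first wild-type library (adjusted p = 0.065). Without that library 9 members were called lower and 0 higher, and without the first rescue library 14 were lower.

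Among the members under 1 CPM, only Sfrp1, a secreted decoy that binds WNT proteins, was tested. It passed the filter through wild type alone, which bears on its direction. It had 0 and 0 counts in the rescue, 0 and 1 in the KO, and 22 and 13 in wild type. The KO level was 38.8-fold lower than wild type by counts, with a 95% counting interval of 6.52 to 1576 (adjusted p = 0.001), and the rescue was at least 9.63-fold lower, with 3 counts taken as the rescue group's limit (adjusted p = 0.004). Wnt7a, a close relative of Wnt7b, did not pass the filter and was not tested. It had 6 and 4 counts in the rescue, 1 and 0 in the KO, and 11 and 8 in wild type, a ratio of 21.1 between wild type and KO with a counting interval of 3.35 to 876. Lef1, another TCF/LEF factor, and Fzd3 were also not tested and were singled out after their values were seen. Lef1 had 1 and 0 counts in the rescue, 3 and 0 in the KO, and 7 and 8 in wild type, and Fzd3 had counts in wild type alone, 2 and 5. The other 10 low members with any count, Fzd9, Fzd10, Wnt1, Wnt5b, Wnt6, Wnt8b, Wnt10a, Wnt10b, Wnt11 and Wnt16, had at most 9 in a library.

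The rescue was set against the KO to ask which members differed once the rescue was present. It shares the KO libraries with the comparison of KO and wild type, so each is given by its own values. Wnt7b, Wnt9a, Fzd4 and Lrp5 were higher in the rescue than in the KO and Ctnnb1 was lower. The feedback genes and Tcf7 did not pass. Of the 22 members tested, 4 were called higher and 1 lower, where 14.2% of all genes were called, 8.35% higher and 5.88% lower. The median log2 fold change was 0.12 over the 22 and -0.00 over all genes tested.

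Wnt7b had 128 and 173 normalised CPM in the rescue libraries, against 75.1 and 65.9 in the KO libraries. It rose 2.13-fold (log2 fold change 1.09, SE 0.13, adjusted p = 0.001), and its neighbours within 5 Mb had a median of -0.03. Fzd4 had 4.69 and 6.26 normalised CPM in the rescue against 1.76 and 1.72 in the KO, a rise of 3.12-fold (log2 fold change 1.64, SE 0.28, adjusted p = 0.004). Lrp5 had 304 and 390 normalised CPM in the rescue against 234 and 243 in the KO and rose 1.46-fold (adjusted p = 0.015). For all of these the higher value was that of the second rescue library, the one with less Irak4. The summed epithelial markers and Vim were also higher in that library, and what lies behind this order was not tested. Wnt9a had 1.90 and 4.53 normalised CPM in the rescue against 0.836 and 1.15 in the KO, a rise of 3.26-fold on 15 and 34 counts in the rescue and 10 and 10 in the KO (log2 fold change 1.70, SE 0.47, adjusted p = 0.033). Ctnnb1 had 1159 and 1069 normalised CPM in the rescue against 1383 and 1456 in the KO, and fell 1.27-fold (log2 fold change -0.35, SE 0.09, adjusted p = 0.026).

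The differences of the other members did not pass the test. Wnt5a had 25.1 and 30.6 normalised CPM in the rescue against 20.1 and 22.0 in the KO (log2 fold change 0.41, SE 0.14, adjusted p = 0.068). Tcf7 had 5.58 and 5.59 normalised CPM in the rescue and 3.76 and 4.01 in the KO (log2 fold change 0.53, SE 0.23, adjusted p = 0.140). Fzd8 had 1.39 and 1.46 normalised CPM in the rescue against 0.585 and 0.458 in the KO, on 4 to 11 counts a library (log2 fold change 1.41, SE 0.48, adjusted p = 0.073). Axin2 had 0.761 and 0.133 normalised CPM in the rescue, from 6 counts and 1 count, against 0.418 and 0.344 in the KO (log2 fold change 0.23, SE 0.79, adjusted p = 0.879). The rescue values of Axin2 lay on either side of the KO values, so no direction was detectable at this depth. Rnf43, with a log2 fold change of 0.36 (SE 0.24), and Wnt4, with 0.27 (SE 0.61), did not pass either. Lgr4 had 29.5 and 34.6 normalised CPM in the rescue against 39.6 and 38.2 in the KO (log2 fold change -0.28, SE 0.12, adjusted p = 0.127). Lrp6, Tcf7l2, Wnt2b, Znrf3 and the Frizzled genes other than Fzd4 and Fzd8 had log2 fold changes between -0.22, for Fzd5, and 0.16, for Fzd2, and none passed.

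Wnt9a was called in 7 of 14 other fits and had a log2 fold change of 0.96 without the second rescue library (adjusted p = 0.394), and Ctnnb1 was called in 7 of 15, and among the fits without 1 library only in that without the first rescue library. Lrp5 was not called when the first (adjusted p = 0.088) or the second KO library (adjusted p = 0.098) was left out, and each of these fits called 2 members higher and 0 lower.

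**Figure D4:**
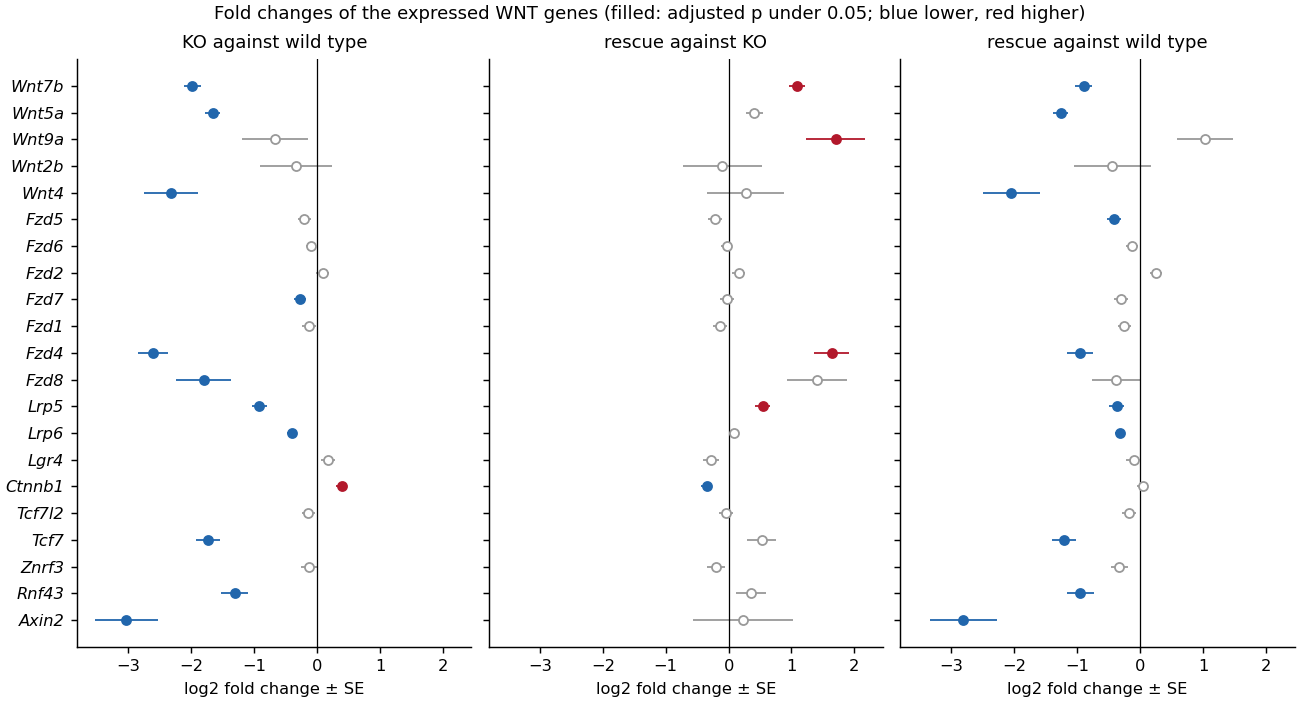
Log2 fold change with its standard error for the 21 expressed genes in the 3 comparisons, by role, on a shared axis. Filled points passed the test, blue when lower and red when higher. The comparisons share libraries, so the panels are not independent.

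The rescue was also set against wild type, with the same rescue and wild-type libraries as above. The ligands Wnt7b, Wnt5a and Wnt4, the receptors Fzd4 and Fzd5, both co-receptors, Tcf7, Axin2, Rnf43 and Sfrp1 were lower in the rescue. That made 11 of 22 called lower and 0 higher by edgeR, where 22.2% of all genes were called, 12% lower and 10.2% higher. At an unadjusted p under 0.05 edgeR gave 2 higher, Wnt9a and Fzd2, and DESeq2 gave 0, with 8 lower after adjustment. The median log2 fold change was -0.38 over the 22 and 0.01 over all genes tested. Without Wnt4, Axin2 and Sfrp1, which passed the filter through wild type alone, 8 of 19 were called lower, with a median of -0.33. Wnt7b, at 128 and 173 normalised CPM in the rescue against 292 and 267 in wild type, was 1.86-fold lower (log2 fold change -0.90, SE 0.13, adjusted p = 4.9e-04). Its neighbours within 5 Mb had a median of -0.21, as did the genes tested on chromosome 15. Wnt5a was 2.39-fold lower (log2 fold change -1.26, SE 0.12, adjusted p = 3.5e-05), with 25.1 and 30.6 normalised CPM in the rescue against 72.0 and 61.5 in wild type. Fzd4 was 1.95-fold lower (adjusted p = 0.007) and Wnt4 4.14-fold lower (adjusted p = 0.007).

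Axin2, Tcf7 and Rnf43 were also lower in the rescue than in wild type. Axin2 had 0.761 and 0.133 normalised CPM in the rescue, against 2.85 and 3.62 in wild type, and was 6.99-fold lower (log2 fold change -2.81, SE 0.53, adjusted p = 0.003). Tcf7, with 5.58 and 5.59 normalised CPM in the rescue against 14.1 and 11.9 in wild type, was 2.32-fold lower (log2 fold change -1.21, SE 0.19, adjusted p = 0.001). For Rnf43 the rescue libraries had 4.82 and 6.39 normalised CPM against 11.4 and 10.4 in wild type, 1.94-fold lower (adjusted p = 0.008). Lrp5 and Lrp6 were lower by 1.3-fold and 1.25-fold (adjusted p = 0.043 and 0.018), the second with 162 and 173 normalised CPM in the rescue against 214 and 204 in wild type. Fzd5 had 78.4 and 61.8 normalised CPM in the rescue against 96.4 and 90.7 in wild type and was 1.33-fold lower (log2 fold change -0.41, SE 0.11, adjusted p = 0.020). Ctnnb1 had 1159 and 1069 normalised CPM in the rescue against 1038 and 1128 in wild type, where the groups overlapped (log2 fold change 0.04, SE 0.09, adjusted p = 0.788). Fzd8 and Wnt9a had log2 fold changes of -0.39 and 1.03 that did not pass (adjusted p = 0.510 and 0.115).

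Without the first wild-type library 4 members were called lower, Wnt7b, Wnt5a, Tcf7 and Axin2, and without the second 6. In both fits Fzd4, Wnt4, Fzd5, Lrp5 and Lrp6 were not called, and in the first Rnf43 was not either. Over all 15 other fits Lrp5 was called in 5, Fzd4, Fzd5 and Lrp6 in 11, and Wnt4 and Rnf43 in 12. Lrp5 was also not called without the first rescue library (adjusted p = 0.179) or without either KO library (adjusted p = 0.063 for each), and neither was Lrp6 with that rescue library left out (adjusted p = 0.054). Leaving out the second rescue library ended the call of Fzd5 (adjusted p = 0.076). By DESeq2, Fzd4, Rnf43 and Wnt4 were not called, Wnt4 with an adjusted p of 0.111. Axin2 had a log2 fold change of -4.49 without the first rescue library and -2.08 without the second, and Wnt9a one of 1.53 without the first rescue library, where it was called (adjusted p = 0.016).

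The rest of the pathway was taken from 8 lists holding 94 further genes, of which 69 were tested. In the KO against wild type 31 were called lower and 10 higher (median log2 fold change -0.22), where 23.5% of all genes tested were called lower and 23.2% higher. In the rescue against the KO 5 were called lower and 11 higher (median 0.07), beside 5.88% and 8.35% of all genes. In the rescue against wild type 17 were called lower and 4 higher (median -0.10), beside 12% and 10.2% of all genes. Porcn, the enzyme that puts the lipid on WNT proteins, fell in the KO, with 16.8 and 21.8 normalised CPM against 43.0 and 41.1 in wild type (log2 fold change -1.14, adjusted p = 4.8e-05), while Wls, which carries the ligands to the surface, rose by 0.26 on the log2 scale (adjusted p = 0.041). Of the R-spondins and other LGR receptors, 1 of 3 tested fell in the KO, Lgr6, a relative of Lgr4. Lgr6 had 56.0 and 53.7 normalised CPM in the KO against 153 and 137 in wild type (adjusted p = 2.9e-05), and 98.7 and 145 in the rescue, higher than in the KO (adjusted p = 0.002). Rspo3 did not pass in the KO but was lower in the rescue, at 1.39 and 1.33 normalised CPM, than in the KO, at 3.68 and 4.01 (adjusted p = 0.013).

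Dkk2, a secreted antagonist that binds the LRP co-receptors, fell in the KO (log2 fold change -1.93, adjusted p = 1.6e-06). It had 15.8 and 15.1 normalised CPM there, against 59.0 and 59.4 in wild type. At 28.2 and 37.7 in the rescue, it was higher than in the KO (adjusted p = 0.002) and lower than in wild type (adjusted p = 7.2e-04). Apcdd1, another antagonist, rose, with 39.3 and 41.8 normalised CPM in the KO against 20.8 and 22.1 in wild type (adjusted p = 2.1e-04). Kremen1, a receptor for DKK proteins, fell 0.85 on the log2 scale in the KO (adjusted p = 0.002). Of 13 tested alternative receptors and polarity genes 6 fell and 1 rose in the KO (median log2 fold change -0.49), beside 46.8% of all genes called, 23.5% lower and 23.2% higher. These shares are also the background of the list counts that follow. Ror1, a receptor for WNT5A, had 0 counts in the KO and 66 in wild type, at least 24.4-fold lower when 3 counts are taken as the group's limit, and 1 count in the rescue. Celsr1, a planar polarity cadherin, had 0.761 and 1.07 normalised CPM in the rescue and 0.752 and 0.802 in the KO, against 60.6 and 52.8 in wild type. Set against wild type, the log2 difference was -5.94 in the rescue (adjusted p = 1.9e-08) and -6.17 in the KO (adjusted p = 1.0e-08), far beyond that of any member expressed. Among 21 genes of the Dishevelled and destruction complex list 9 fell and 3 rose in the KO, with a median of -0.02. Cxxc5, which restrains Dishevelled, had 17.6 and 13.3 normalised CPM there against 76.3 and 74.5 in wild type (adjusted p = 1.3e-05), and Dvl2 rose by 0.88 on the log2 scale (adjusted p = 3.5e-05). Of 16 tested nuclear partners of beta-catenin 6 fell and 3 rose in the KO, with a median of -0.08. Tbl1xr1 was lower and the co-repressor gene Ctbp1 higher, with log2 fold changes of -0.75 and 0.66 (adjusted p = 7.0e-05 and 1.6e-04).

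Of 10 tested WNT target genes beyond the members, which other pathways are also known to control, 6 fell and 1 rose in the KO (median log2 fold change -0.44), where 46.8% of all genes were called, 23.5% lower and 23.2% higher. Myc had 201 and 233 normalised CPM in the rescue, 152 and 128 in the KO, and 231 and 234 in wild type, so that it was lower in the KO than in wild type (adjusted p = 1.8e-04) and higher in the rescue than in the KO (adjusted p = 0.004). Bmp4 had 2.67 and 4.13 normalised CPM in the KO against 17.9 and 14.2 in wild type (log2 fold change -2.26, adjusted p = 4.4e-05), and the rescue stood at 1.78 and 3.20, below wild type as well (adjusted p = 5.9e-05). The cyclin gene Ccnd1 had log2 fold changes of -0.46 in the KO (adjusted p = 9.6e-04) and -0.36 in the rescue (adjusted p = 0.010), both against wild type.

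Beyond what chose them, the members shared genome positions. Chromosome 11 held 9 of the 42 genes, 6 of them expressed, and 4 pairs of ligand genes were neighbours. Of these pairs, Wnt9b and Wnt3 (24.3 kb apart, chromosome 11) both had 0 counts, and Wnt10b with Wnt1 (11.7 kb, chromosome 15) and Wnt6 with Wnt10a (6.19 kb, chromosome 1) stayed under 1 CPM. Wnt3a and Wnt9a (16.2 kb, chromosome 11) differed, with 0 counts for the first and a mean of 1.91 CPM for the second. Of the 22 tested members, 6 share exonic sequence with an antisense gene, and since the strand setting is not stated, the reads of the 2 genes cannot be separated. For Wnt7b that gene is AU022754, with 24 and 31 counts in the rescue, 36 and 33 in the KO, and 38 and 59 in wild type, far below Wnt7b itself. Gm2670 beside Wnt5a had at most 8 counts and Gm11670 beside Axin2 had 0. Ulk4, antisense to Ctnnb1, had 23 to 43 counts a library. Irak4 itself shares exonic sequence with the antisense gene Twf1, whose counts are not given here. The count of an antisense gene does not measure the reads of the shared stretch.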

How the data were processed

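Poly(A) RNA of 6 libraries was analysed. The submitters' processing notes name bcl2fastq, STAR 2.0.4b, Subread, featureCounts 1.45 and build GRCm38. Which strand setting and which annotation release were used is not given in the sources used here. Each deposited file lists 41388 genes with 3 values, the count, CPM and RPKM, per the file headers. CPM as deposited equalled the count over the file's total (largest difference 3.3e-11), and RPKM as deposited equalled CPM per kilobase of listed length (8.0e-11), so the counts alone were tested. Symbols came from a reference list of gene names for 40254 identifiers. GENCODE M21, which held 40340 of the identifiers, gave the exon overlaps.

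Genes were kept by filterByExpr (minimum count 10, minimum total 15), leaving 12339. Counts were scaled by TMM and tested by quasi-likelihood in edgeR 4.0.16 (R 4.3.3), fitting the 3 groups together, which left 3 residual degrees of freedom. Benjamini-Hochberg adjustment ran over all genes tested, and an adjusted p under 0.05 was a call. The scripts were tested on simulated data. SE is the log2 fold change over the square root of F. Groups with no count were set to a floor of 3 counts over the group. Intervals are exact at 95% and, like floors, cover counting error only. Replicates differed by more than sampling noise in each group (chi-square per degree of freedom 8.01, 4.15 and 3.49 for rescue, KO and wild type).

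The members, lists and tests were chosen with earlier results of these data known. Each expressed member is named, lower ones where a library had 10 counts or more, and up to 3 called genes of each further list qualified by smallest adjusted p, of which some are given. Of the list genes Tle5 was not matched. Neighbour medians cover genes tested within 5 Mb on either side. Alternatives were other scalings, filters, DESeq2 1.42.0, a test against 1.5-fold, only the groups compared, a replicate block and leaving out each library.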

Additional observations from a re-analysis of the deposited data

How the results depend on the processing

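Wnt7b, Wnt5a, Wnt4, Fzd4, Lrp5, Tcf7, Axin2 and Rnf43 kept direction and call in the KO against wild type in all 15 other fits run. Of these, Wnt4 and Axin2 passed the main filter through wild type alone, which bears on their direction. For that comparison members called higher numbered 2 with library totals only, a scaling that moved the median log2 fold change of all genes to 0.14, and 0 against a 1.5-fold change. Leaving out 1 library gave 9 to 14 lower and 0 to 1 higher. In the rescue against the KO, 0 were higher and 0 lower against a 1.5-fold change, 0 lower with only the 2 groups compared, and 2 to 5 higher and 0 to 2 lower leaving out 1 library. For the rescue against wild type, 1 was higher with library totals only and with no filter, 5 were lower against a 1.5-fold change, and leaving out 1 library gave 4 to 11 lower and 0 to 1 higher. Where a group keeps 1 library, that library is assumed to vary like the others.

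Direction reversed only for uncalled differences. With library totals only, the log2 fold changes in the KO against wild type of Fzd1, Znrf3 and Fzd6 were 0.00, 0.00 and 0.03. Leaving out 1 library gave ranges of -1.32 to 0.45 for Wnt2b, -0.25 to 0.01 for Fzd1 and -0.32 to 0.02 for Znrf3. In the rescue against the KO the ranges were -0.14 to 0.07 for Fzd7, -0.81 to 0.87 for Wnt2b, -3.14 to 0.00 for Sfrp1, -1.45 to 0.95 for Axin2 and -0.11 to 0.03 for Tcf7l2. In the rescue against wild type they were -0.21 to 0.01 for Lgr4, -1.01 to 0.33 for Wnt2b and -0.03 to 0.10 for Ctnnb1. The cause was not tested.

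The replicate numbers in the titles are not stated to mark a shared batch. Same-numbered libraries deviated from their group means with correlations of -0.192 between rescue and KO, -0.153 between rescue and wild type and 0.037 between KO and wild type over 12339 genes. With a replicate block 11 members were lower and 1 higher in the KO against wild type, 0 lower and 4 higher in the rescue against the KO, and 10 lower and 0 higher in the rescue against wild type. The count of expressed members was 21 to 23 under the other definitions tried. Depth limits Axin2, Wnt4, Fzd8, Wnt9a and Wnt2b, which had at most 37 counts in a library.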
